A study of Mus musculus with 21 samples.

Results

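The difference between dorsal and ventral hippocampus was examined in control mice given ethanol. Of the 21 libraries of the series, 7 belong to these groups by their titles: 3 of dorsal hippocampus and 4 of ventral hippocampus, each with a replicate number that is used here as its name. All came from male mice of 8 weeks, injected into the peritoneum with 2 g/kg ethanol as a 20% solution in saline. The control arm is the counterpart of an arm in which an AAV vector delivered a hairpin RNA that targets Acss2, the enzyme turning acetate into acetyl-CoA. In the sample protocol that vector goes into the dorsal hippocampus. The wording of the overall design could also mean systemic delivery, and the labels do not settle it. A vector for the controls, the time between ethanol and dissection and the borders of the dissected pieces are not described in the labels. RNA abundance was counted per gene in 24498 genes, and whether libraries of a group came from separate animals is not stated.

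The hippocampus runs from a dorsal (septal) pole to a ventral (temporal) pole. The dorsal part is best known for spatial memory and connects with retrosplenial and association cortex, and the ventral part is best known for anxiety and stress responses and connects with the amygdala, hypothalamus and prefrontal cortex. Pyramidal cells of fields CA1 and CA3 and granule cells of the dentate gyrus express partly different genes at the 2 poles. Cortex lies above the dorsal pole, the septum lies in front of it, and the choroid plexus of the ventricles lies beside both, so the tissue next to a dissected piece differs between poles.

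Gene reads numbered 2819837 to 13240179 in the dorsal libraries and 3503465 to 9778137 in the ventral ones. Ventral control 1 stood apart from the other 6 libraries, at 89.5 on the first principal component, which held 40.0% of the variance, against -32.6 to 13.9. The second component, with 22.9%, had the dorsal libraries at 14.5 to 47.3 and the ventral ones at -56.8 to -3.63, so the labels did not overlap on it. The correlation of ventral control 1 with the other ventral libraries across genes (log2 CPM) was 0.873 to 0.930, while the remaining ventral pairs had 0.932 to 0.951 and the dorsal pairs 0.956 to 0.973. Dorsal with ventral pairs covered 0.880 to 0.963, so the 2 groups were not separate on this measure. The 45S ribosomal RNA gene Rn45s took 20.7%, 12.3% and 3.66% of gene reads in dorsal controls 1 to 3 and 0.625%, 4.61%, 12.6% and 10.7% in ventral controls 1 to 4. The part of ribosomal RNA content in the results was not tested. Results that rest on ventral control 1 are given with and without it.

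**Figure D1:**
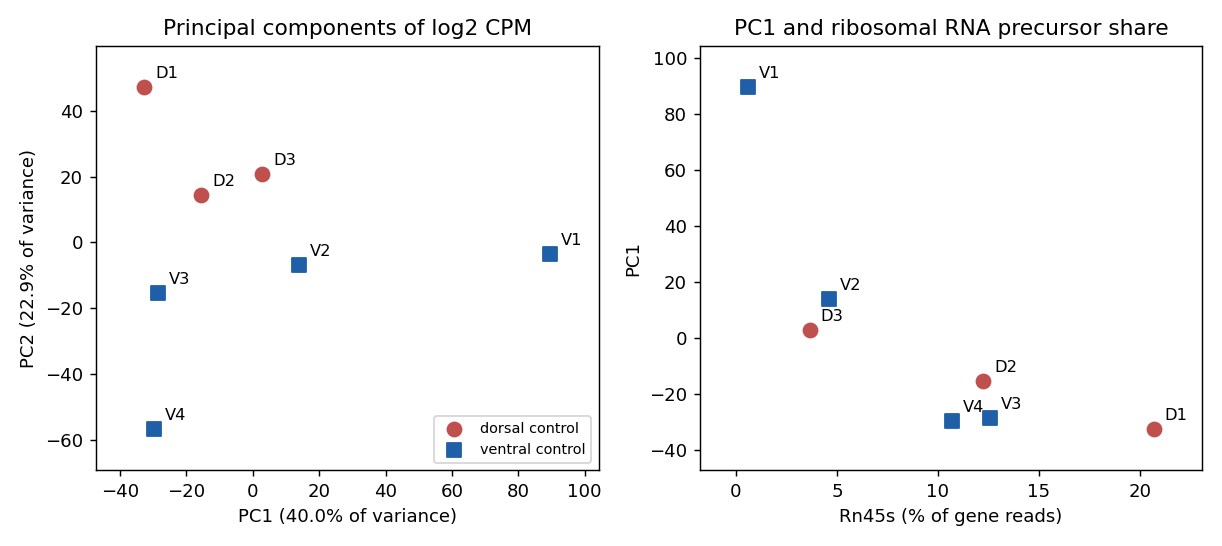
Each point is 1 library, 3 dorsal and 4 ventral controls. The left panel plots the first 2 principal components of log2 CPM with the percent of variance on each axis label, and the right panel plots the first component against the percent of gene reads taken by Rn45s. Ventral control 1 lies alone at 89.5 on the first component, and it has the lowest Rn45s share, 0.625%.

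Levels were higher in dorsal libraries for several genes known from deep cortical layers, from CA1 and from synaptic release, and higher in 3 of the 4 ventral libraries for a set of forebrain transcription factors. None of these differences passed the main test over all 7 libraries. Of 14069 genes tested, 0 (0%) had a Benjamini-Hochberg adjusted p under 0.05 in the quasi-likelihood test of edgeR, and the smallest adjusted p was 0.222. At an unadjusted p under 0.05 there were 940 genes (6.68%), 561 of them higher in dorsal libraries and 379 higher in ventral ones. A second tool, DESeq2, called 45 of 18486 genes (0.243%), 32 higher in dorsal libraries and 13 lower. Without ventral control 1, edgeR called 14 of 14009 genes (0.0999%), 2 higher and 12 lower in dorsal libraries, and 8 genes were called both there and by DESeq2 over all 7 libraries. The biological coefficient of variation was 32.1%.

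The median log2 fold change, dorsal over ventral, was -0.06, with 6159 genes (43.8%) above 0 and 7910 (56.2%) below. Differences of more than 2-fold were seen toward ventral in 573 genes (4.07%) and toward dorsal in 194 (1.38%). By the separate measure of whether the groups overlap, 791 genes (5.62%) had every dorsal library above every ventral one, and 536 (3.81%) had the reverse, together 9.43%. Large fold changes thus lay mostly on the ventral side while clean separations lay mostly on the dorsal side. Because the RNA is from bulk tissue, fewer cells of a type and less RNA per cell cannot be told apart in any of these values.

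**Figure D2:**
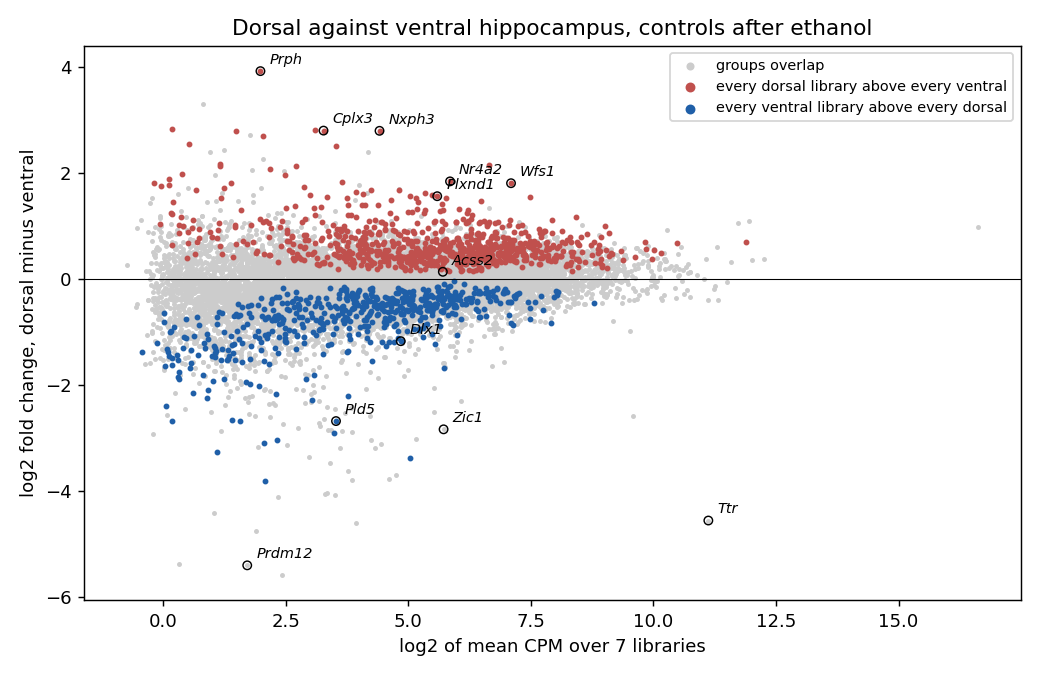
Each point is 1 of 14069 genes. The horizontal axis is the mean level in log2 CPM and the vertical axis is the log2 fold change, dorsal over ventral control, with colour for genes whose groups do not overlap. Prph lies highest among the labelled genes at 3.91, and Pld5 and Zic1 lie at -2.68 and -2.84.

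The gene with the smallest p was Prph (chromosome 15, 99055174 to 99058978, plus strand, mm10), which encodes peripherin, an intermediate filament protein of peripheral and long-projecting neurons. Its levels were 10.7, 9.72 and 5.11 CPM in dorsal controls 1 to 3 and 0.906, 0.256, 0.534 and 0.439 CPM in ventral controls 1 to 4. Every dorsal library was thus above every ventral one, and the ventral levels lay near the 3 counts that a reading of 0 allows in each library (0.320 to 0.769 CPM in the ventral libraries). The log2 fold change was 3.91 with a standard error of 0.47 (edgeR adjusted p = 0.222, and 0.0309 without ventral control 1). The other 5 filament genes examined were higher in dorsal libraries by 0.19 to 0.57 on the log2 scale. Among these 5 only Ina, which encodes internexin, had groups that did not overlap, with dorsal levels of 159 to 265 CPM against 116 to 155 CPM. Of all genes, 5.62% had every dorsal library above every ventral one.

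Among genes averaging 5 CPM or more, the smallest p toward dorsal was that of Plxnd1 (chromosome 6, 115954811 to 115995005, minus strand), a receptor for semaphorin guidance cues. It stood at 60.1, 96.8 and 74.3 CPM in dorsal controls against 22.8, 34.1, 23.6 and 25.05 CPM in ventral controls. The lowest dorsal library was thus well above the highest ventral one, and the log2 fold change was 1.56 with a standard error of 0.23 (edgeR adjusted p = 0.448, DESeq2 adjusted p = 1.69e-05). Hs6st3, a heparan sulfate 6-O-sulfotransferase, was at 36.5, 30.2 and 26.3 CPM in dorsal libraries and 6.52, 8.21, 10.7 and 12.9 CPM in ventral ones. Adamts2, a procollagen-cleaving protease, was at 14.3, 16.2 and 17.98 CPM against 7.43, 4.87, 4.06 and 5.93 CPM. Neither gene had a dorsal library within the ventral range.

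Others among the genes with the smallest p toward dorsal encode a kinase, a pump modulator and a phospholipase. Nuak1, a kinase of the AMPK family, was at 107 ± 17.2 CPM (SD, n = 3) in dorsal and 51.1 ± 6.17 CPM (SD, n = 4) in ventral controls. Fxyd7, a modulator of the sodium-potassium pump in brain, was at 59.4 ± 9.76 and 24.9 ± 5.87 CPM (SD, n = 3 and 4). Tmem44, a transmembrane protein, had 87.2 ± 25.8 and 30.5 ± 8.77 CPM (SD, n = 3 and 4). Etl4, Pcnx2 and Plcd3, the last a phospholipase C, had log2 fold changes of 1.07, 0.98 and 1.20. DESeq2 called all 6 of these genes, and edgeR called 0 of them over the 7 libraries or without ventral control 1. Other genes that DESeq2 alone called higher in dorsal libraries include Adcy8, a calcium-stimulated adenylyl cyclase (log2 fold change 1.49), Limk1, a kinase of the actin cytoskeleton (0.94), Tubb3, a neuronal tubulin (0.87), and Tnnt2, a troponin (2.69).

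**Figure D3:**
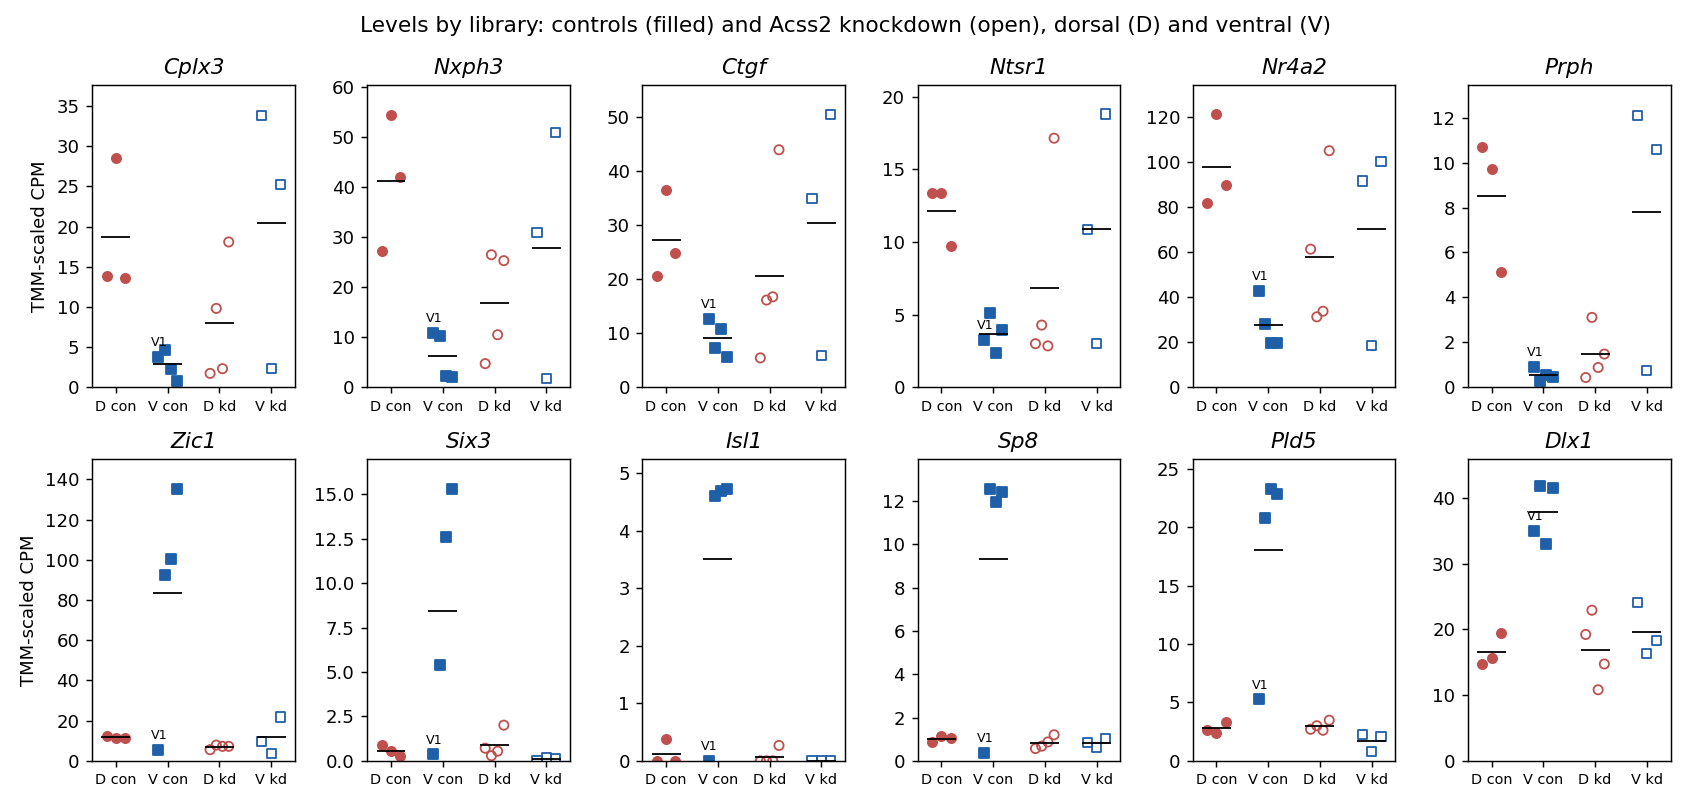
Levels of 12 genes in CPM on linear axes that start at 0 and differ between panels, 1 point per library, in dorsal controls, ventral controls, dorsal knockdown and ventral knockdown libraries, with bars at group means and ventral control 1 marked. Nr4a2 and the other genes of the upper row separate the control groups, while Zic1 and Pld5 are highest in ventral controls 2 to 4. In ventral knockdown 2 and 4 Prph is at 12.1 and 10.6 CPM, beside 5.11 to 10.7 CPM in dorsal controls.

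Several of the genes highest in dorsal libraries are known from neurons of the deep layers and subplate of the neocortex. This grouping was drawn up after their values were seen, so it is a description. Nr4a2 (chromosome 2, 57106830 to 57124003, minus strand), an orphan nuclear receptor of those layers that neuronal activity also induces, was at 82.0, 122 and 89.8 CPM in dorsal controls and 43.0, 27.95, 19.7 and 19.8 CPM in ventral ones. The log2 fold change was 1.84 with a standard error of 0.30 (edgeR adjusted p = 0.448). Without ventral control 1, the highest ventral library, it was 2.14 and Nr4a2 was called (edgeR adjusted p = 0.0170).

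Cplx3 (chromosome 9, 57599992 to 57606281, minus strand), a complexin of subplate neurons that regulates vesicle fusion, was at 13.8, 28.6 and 13.6 CPM against 3.81, 4.62, 2.24 and 0.769 CPM. Nxph3, a secreted ligand of neurexins, was at 27.2, 54.4 and 42.1 CPM against 10.9, 10.3, 2.14 and 1.98 CPM. Ntsr1, the neurotensin receptor of layer 6 corticothalamic cells, was at 13.4, 13.3 and 9.73 CPM against 3.26, 5.13, 2.35 and 3.95 CPM. In these 3 genes, too, the groups did not overlap, and dorsal control 2 was the highest library for Cplx3 and Nxph3. The same held for Ctgf, a matricellular growth factor, at 27.3 ± 8.22 against 9.04 ± 3.29 CPM (SD, n = 3 and 4), whose exons overlap an opposite-strand gene model.

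Of the 13 genes in this grouping, 5 had every dorsal library above every ventral one, beside 5.62% of all genes, and the median log2 fold change was 0.54. The other 8 had overlapping groups: Tle4, Hs3st4 and Moxd1 had log2 fold changes of 0.10, -0.05 and 0.00, and Sulf1 was at 139 CPM in ventral control 4 against 7.57 to 15.9 CPM elsewhere. A broader list of 10 subiculum and neocortex genes had the same median, 0.54 (0.40 to 0.85 on leaving out any 1 library). Of these 10 genes 7 were higher in dorsal libraries, beside 43.8% of all genes, and edgeR called 0. The mean scores of the list overlapped between labels, at -0.05, 0.77 and 0.16 in dorsal controls and -0.56, 0.50, -0.21 and -0.61 in ventral ones. The 3 members of the list without overlap, beside 5.62% of all genes, were Cux2, Tbr1 and Tshz2, all transcription factors of cortical projection neurons. Cux2 was at 60.6, 84.7 and 51.7 CPM in dorsal controls and at 6.71, 33.3, 18.4 and 27.8 CPM in ventral ones. Tshz2 was at 142, 290 and 104 CPM against 25.2, 103, 13.6 and 23.6 CPM, where dorsal control 3 barely exceeded ventral control 2. The part of adjoining cortex in these levels was not tested.

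Markers of the hippocampal fields followed the labels in part. Of 9 genes known from CA1 pyramidal cells, 7 were higher in dorsal libraries and 2 had no overlap between groups, beside 43.8% and 5.62% of all genes. The median log2 fold change was 1.19 (0.90 to 1.40 on leaving out any 1 library). Wfs1 (chromosome 5, 36966104 to 36989205, minus strand), a membrane protein of the endoplasmic reticulum and a marker of dorsal CA1, was at 314, 229 and 150 CPM in dorsal controls and 35.0, 78.5, 52.0 and 98.5 CPM in ventral ones. Mpped1, a metallophosphoesterase, was at 269, 283 and 300 CPM against 161, 155, 24.9 and 53.5 CPM. In both genes the groups did not overlap. Ventral control 3 was the lowest of the 7 libraries for 8 of these 9 genes, and ventral control 1 for the other, Wfs1.

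Dentate and CA3 genes leaned the other way. All 11 dentate granule cell genes and all 9 CA3 and mossy cell genes had negative log2 fold changes, beside 56.2% of all genes, with medians of -1.08 and -0.89. For the dentate list the median was -0.29 without ventral control 3, where C1ql2, a secreted synaptic protein of mossy fibers, reached 212 CPM against 4.67 to 53.0 CPM in the other 6. In that library Prox1, the transcription factor that specifies granule cells, was at 179 CPM against 17.8 to 74.0 CPM elsewhere. Ventral control 3 was the highest library for 10 of the 11 genes, and dorsal control 2 was the lowest for 7. Of the CA2 genes 5 of 6 were lower in dorsal libraries, beside 56.2% of all genes. Of the 6, 1 had every ventral library above every dorsal one, beside 3.81% of all genes. It was Pcp4, a calmodulin-binding peptide, with 82.5 to 105 CPM against 132 to 259 CPM. Dentate and CA1 gene levels thus varied between libraries of 1 label as well as between labels, and the part of this variation in the other results was not tested.

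Of the genes used to mark the 2 poles themselves, few divided the libraries by label. Of 5 dorsal markers, 3 were higher in dorsal libraries (43.8% of all genes were), and Wfs1, described above, had no overlap. Lct, a dorsal dentate marker, was at 51.2, 1.43 and 4.97 CPM in dorsal controls and at 3.26, 3.08, 103 and 38.6 CPM in ventral ones. Fibcd1, a chitin-binding receptor of dorsal CA1, was at 173, 64.0 and 221 CPM against 66.9, 68.5, 38.6 and 68.7 CPM, so that dorsal control 2 fell among the ventral libraries.

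Of 8 ventral markers, 7 had negative log2 fold changes, but 0 had every ventral library above every dorsal one, beside 3.81% of all genes. The median was -0.63 and turned to 0.45 without ventral control 1. Dcn, which encodes the proteoglycan decorin, was at 318 CPM in ventral control 1, at 110 CPM in dorsal control 3 and at 3.12 to 56.2 CPM in the other 5. Trhr, the receptor for thyrotropin-releasing hormone, was at 42.8 CPM in ventral control 1 and 15.5 CPM in dorsal control 3, and at most 12.8 CPM elsewhere. Col5a1, a collagen on the ventral list, ran against it, at 36.1, 83.5 and 64.2 CPM in dorsal controls against 17.9, 29.7, 35.7 and 16.7 CPM. The score of the ventral markers was 1.54 in ventral control 1, 1.04 in dorsal control 3 and 0.56 in ventral control 2, and below 0 in the other 4, so the 2 labels overlapped on it.

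**Figure D4:**
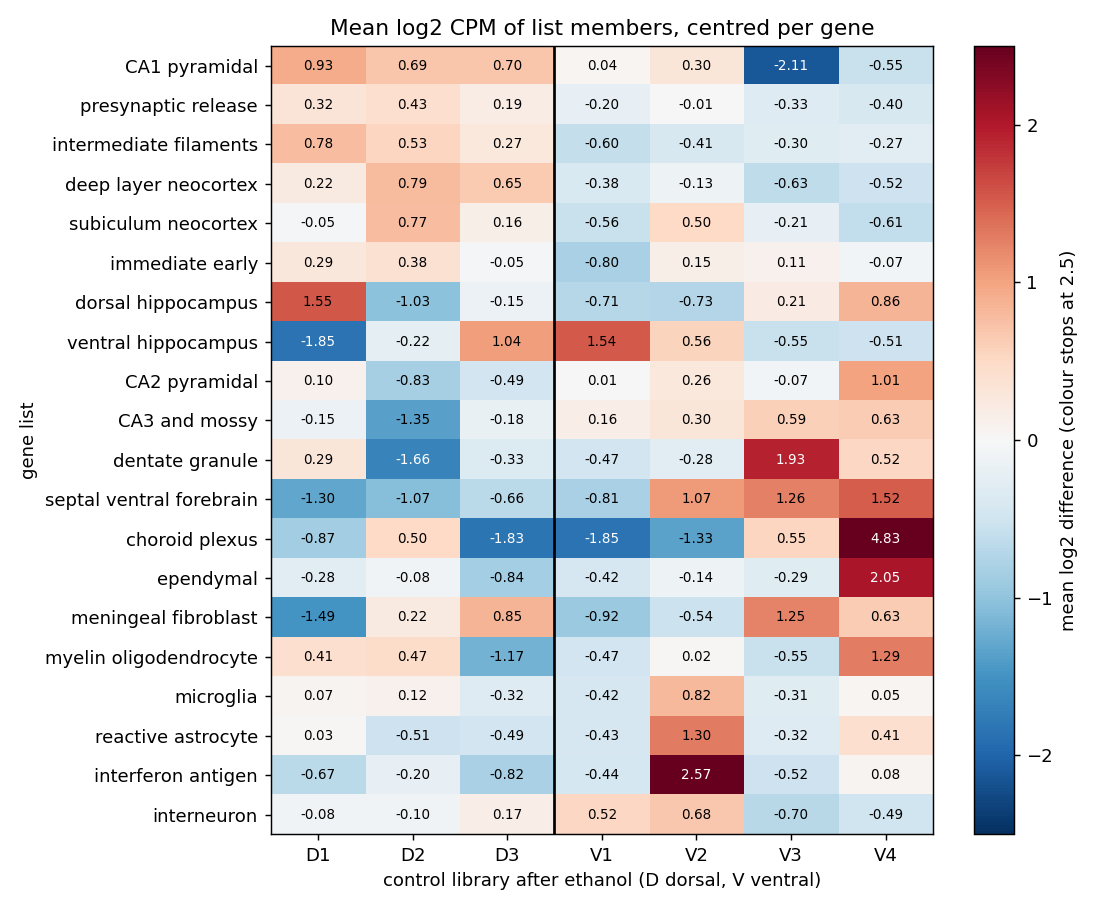
Rows are gene groups and columns the 7 control libraries. Colour gives the mean over members of log2 CPM minus each gene's mean over the libraries, and the scale stops at 2.5. The CA1 row is at 0.69 to 0.93 in the 3 dorsal libraries and at 0.04, 0.30, -2.11 and -0.55 in ventral controls 1 to 4, whereas choroid plexus genes stand out in ventral control 4 alone (4.83) and interferon genes in ventral control 2 alone (2.57).

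Some of the genes higher in the ventral group were not high in ventral control 1. Pld5 (chromosome 1, 175962306 to 176275312, minus strand), a phospholipase D family member thought to lack catalytic activity, was at 2.67, 2.38 and 3.29 CPM in dorsal controls and 5.26, 20.8, 23.3 and 22.8 CPM in ventral ones. The groups did not overlap, yet ventral control 1 was nearer the dorsal range than its own group. The log2 fold change was -2.68 with a standard error of 0.52 (edgeR adjusted p = 0.459), and without ventral control 1 it was -2.98 and called (edgeR adjusted p = 0.00431). Slc18a2, the vesicular monoamine transporter, was at 0.286 to 1.61 CPM in dorsal controls, 3.26 CPM in ventral control 1 and 8.23 to 11.5 CPM in the other 3, and was called by DESeq2 (adjusted p = 0.00329).

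Of the 12 genes called lower in dorsal libraries without ventral control 1, 5 are transcription factors: Zic1, Zic2, Six3, Sp8 and Prdm12. They were grouped here, after their values were seen, with genes of the developing and adult ventral forebrain and septum. Zic1 (chromosome 9, 91358058 to 91365810, minus strand), a zinc finger factor of the medial septum and thalamus, was at 12.5, 11.2 and 11.5 CPM in dorsal controls, 5.44 CPM in ventral control 1 and 92.3, 100 and 135 CPM in ventral controls 2 to 4. Six3 (chromosome 17, 85613608 to 85629302, plus strand), a homeobox factor of the anterior forebrain, was at 0.891, 0.572 and 0.280 CPM in dorsal controls, 0.362 CPM in ventral control 1 and 5.39, 12.6 and 15.3 CPM in ventral controls 2 to 4. Sp8, a zinc finger factor of olfactory and striatal interneurons, was at 0.891 to 1.14 CPM in dorsal controls, 0.362 CPM in ventral control 1 and 11.97 to 12.6 CPM in ventral controls 2 to 4. In each of these genes ventral control 1 was the lowest or within the dorsal range.

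Isl1, Prdm12, Col6a3 and Ano1 had the same order, low in dorsal controls and ventral control 1 and higher in ventral controls 2 to 4. Isl1, a LIM homeobox factor of septal and striatal neurons, had 0 reads in dorsal controls 1 and 3 and ventral control 1, which allows up to 1.34, 0.210 and 0.544 CPM, and 0.381 CPM in dorsal control 2. In ventral controls 2 to 4 it was at 4.62, 4.70 and 4.72 CPM. Prdm12, a chromatin regulator of sensory neurons, was at 0.0700 to 0.445 CPM in dorsal controls, 0.362 CPM in ventral control 1 and 5.90 to 9.56 CPM in the other 3. Col6a3, a collagen, was at 2.67 to 4.34 CPM in dorsal controls, 2.54 CPM in ventral control 1 and 36.7, 22.7 and 67.3 CPM in ventral controls 2 to 4. Ano1, a calcium-activated chloride channel, was at 2.87 to 3.15 CPM, 1.63 CPM and 13.9 to 17.2 CPM in the same order. The exons of Zic1, Six3 and Prdm12 overlap gene models on the opposite strand, and which strand was counted is not stated in the labels.

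Of 24 genes gathered after seeing these values as known from the septum and ventral forebrain, 21 were tested and 20 had negative log2 fold changes, beside 56.2% of all genes, with a median of -2.06 (-2.40 to -1.28 on leaving out any 1 library). Over 7 libraries edgeR called 0 of them, and without ventral control 1 it called 5, beside 0.0999% of all genes in that fit. Because the list was drawn up from these values, that count is a description and no separate support. The mean scores of the list were -1.30, -1.07 and -0.66 in dorsal controls, -0.81 in ventral control 1 and 1.07, 1.26 and 1.52 in ventral controls 2 to 4. Some members did not take part: Meis2 had a log2 fold change of 0.48, and Trpc4 was highest in ventral control 1, at 102 CPM against 29.5 to 64.6 CPM elsewhere. Lhx8, Chat and Gsx2, which mark cholinergic and striatal lineages, had too few reads to be tested. The part of adjoining tissue in these levels was not tested.

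Dlx1 (chromosome 2, 71528113 to 71533981, plus strand), a homeobox factor of GABAergic interneurons, was high in ventral control 1 as well as in the other ventral libraries. It stood at 14.7, 15.6 and 19.5 CPM in dorsal controls and 35.0, 41.8, 33.0 and 41.5 CPM in ventral ones, a log2 fold change of -1.17 with a standard error of 0.20 (edgeR adjusted p = 0.448, DESeq2 adjusted p = 9.61e-04). The dorsal maximum was thus far below the ventral minimum. Dlx2, Dlx5 and Dlx6 also had every ventral library above every dorsal one, as did 3.81% of all genes. Their log2 fold changes were -0.72, -0.71 and -1.19. Dlx1 overlaps the antisense gene Dlx1as. Of 12 interneuron genes, however, only 5 had negative log2 fold changes, beside 56.2% of all genes. Among the 12, 2 had every ventral library above every dorsal one, beside 3.81% of all genes. The median was 0.05, and 0.25 without ventral control 1. Gad2, which makes GABA, was at 142 ± 16.3 CPM (SD, n = 3) in dorsal and 208 ± 42.1 CPM (SD, n = 4) in ventral controls, without overlap.

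The remaining ventral-side genes with the smallest p had smaller differences. Ecel1, a membrane peptidase, was at 4.14 ± 2.79 and 20.6 ± 10.2 CPM (SD, n = 3 and 4). Ctsc, a lysosomal protease, was at 7.07 ± 2.45 and 18.7 ± 5.51 CPM (SD, n = 3 and 4). Hectd2, Gpsm2, Rragd, Cyp7b1, Palmd, N4bp2 and Nectin3 had log2 fold changes between -1.12 and -0.71. Rragd, a GTPase that signals amino acid supply to mTORC1, was the most abundant of them, at 71.0 ± 5.54 and 116 ± 13.2 CPM (SD, n = 3 and 4).

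The medians of 2 further lists came from single libraries. All 14 choroid plexus genes had negative log2 fold changes and were highest in ventral control 4, with a median of -3.25, which was 0.03 without ventral control 4. Ttr, the thyroid hormone carrier made by choroid plexus, was at 114, 343 and 24.4 CPM in dorsal controls and 16.1, 48.5, 559 and 14472 CPM in ventral ones. The ependymal list had 9 of 10 members lower, with a median of -1.29 that was 0.02 without the same library. Ventral control 4 thus carried both lists.

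Interferon-induced and antigen presentation genes followed ventral control 2 in the same way. All 22 tested of 27 had negative log2 fold changes, with a median of -1.63, and -0.20 without that library, which was the highest for 21 of them. Ifit1, an antiviral RNA-binding protein, was at 1.34, 2.95 and 1.68 CPM in dorsal controls and 2.72, 70.8, 2.46 and 3.52 CPM in ventral ones. Irf7, a transcription factor of the interferon response, was at 60.5 CPM in ventral control 2 and 1.09 to 2.57 CPM in the other 6. Reactive astrocyte genes had a median of -1.01, and -0.34 without that library, and microglia genes -0.19 and 0.21. The median for myelin genes was -0.25, and 0.35 without ventral control 4. Astrocyte, endothelial and mural cell lists had medians of 0.15, 0.02 and -0.05.

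Most genes of synaptic release had higher mean levels in dorsal libraries. Of 23 such genes, 18 had positive log2 fold changes beside 43.8% of all genes, and 7 had every dorsal library above every ventral one beside 5.62%. Log2 fold changes ran from -0.43 to 2.79 with a median of 0.36, and 0.30 to 0.38 on leaving out any 1 library, with 0 called by edgeR. Stx1a, the syntaxin of the fusion complex, was at 149, 183 and 157 CPM in dorsal controls and 83.2, 84.6, 88.9 and 55.3 CPM in ventral ones. Unc13c, a vesicle priming factor, was at 59.3, 104 and 52.3 CPM against 33.7, 26.7, 15.1 and 22.2 CPM. DESeq2 called both, as well as Cplx3. Sv2a, Rims1 and Cplx1, which act in vesicle traffic, the active zone and fusion control, separated the groups with log2 fold changes of 0.51, 0.45 and 0.47.

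Potassium channel genes and receptors for monoamines and acetylcholine leaned the same way, the channels only slightly. Of 25 potassium channel genes 17 were higher in dorsal libraries and 5 had no overlap, beside 43.8% and 5.62% of all genes. Among the 5 were Kcnh7, Kcnma1, Kcna2 and Kcnc2. The median was 0.16, and 0.05 to 0.29 on leaving out any 1 library, lowest without dorsal control 1. Kcnh7, an Erg-type channel, was at 30.7, 27.0 and 19.2 CPM against 9.97, 13.1, 5.13 and 10.9 CPM and was called by DESeq2 (adjusted p = 0.0491). Of 30 tested receptors for monoamines and acetylcholine 22 were higher and 5 had no overlap, beside the same 43.8% and 5.62%. Their median was 0.34, and 0.21 to 0.48 on leaving out any 1 library. Chrna4, a nicotinic receptor subunit, had the largest difference there, at 41.4, 65.5 and 49.4 CPM against 13.05, 24.6, 8.55 and 25.5 CPM. Htr1a, the serotonin autoreceptor that is also postsynaptic in hippocampus, was at 45.4, 37.7 and 43.4 CPM against 33.2, 34.6, 26.4 and 25.2 CPM, and the groups again did not overlap.

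Glutamate receptor genes were higher in 15 of 22 cases, beside 43.8% of all genes. The median was 0.30, and 0.12 to 0.38 on leaving out any 1 library. Of the 22 genes 1, Grin2c, an NMDA receptor subunit, had no overlap, which is near the 5.62% of all genes. Of 12 GABA-A receptor subunits 5 were higher in dorsal libraries, near the 43.8% of all genes. Among the 12, 0 separated the groups, beside 9.43% of all genes in either direction, so with so few genes this count says little. Their median was -0.16, and -0.003 without ventral control 1. Axon guidance and adhesion genes were higher in 30 of 44 cases, beside 43.8% of all genes, with a median of 0.19. Of the 44 genes, 4 had every dorsal library above every ventral one and 2 the reverse, beside 5.62% and 3.81% of all genes. Plxnd1 was among the 4. So was the teneurin Tenm3, at 204, 186 and 187 CPM against 73.6, 126, 71.9 and 147 CPM. The guidance receptor Nrp1 and the cadherin Cdh8 had the reverse order, with log2 fold changes of -0.41 and -0.46.

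Immediate early genes, which neurons switch on within minutes of activity, were higher in dorsal libraries in 24 of 33 cases, beside 43.8% of all genes. The median was 0.33 (0.23 to 0.57 on leaving out any 1 library), lowest without ventral control 1. That library was the lowest of all for 18 of the 33 genes. The list scores were 0.29, 0.38 and -0.05 in dorsal controls and -0.80, 0.15, 0.11 and -0.07 in ventral ones, so the labels overlapped. Nr4a1, a nuclear receptor related to Nr4a2, was at 108, 101 and 59.8 CPM in dorsal controls and 25.6, 53.9, 47.9 and 43.4 CPM in ventral ones. Ptgs2, the inducible cyclooxygenase, went against the group, at 22.3, 6.58 and 11.8 CPM against 35.3, 33.1, 24.8 and 30.3 CPM. Both separated the groups, in opposite directions, as did Dusp1, Cyr61 and Per1 toward dorsal. With Nr4a2 that made 5 toward dorsal and 1 toward ventral, beside 5.62% and 3.81% of all genes. Nr4a2 was the member called by DESeq2 and without ventral control 1.

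Enzymes of ethanol and acetate use differed little between regions. Acss2 was at 53.0, 58.7 and 52.7 CPM in dorsal controls and 50.4, 54.4, 47.4 and 48.1 CPM in ventral ones, a log2 fold change of 0.13 with a standard error of 0.16 (edgeR adjusted p = 0.782). The 9 tested enzymes had log2 fold changes of -0.33 to 0.23, and 1 separated the groups, close to the 9.43% of all genes that did so in either direction. It was Crat, carnitine acetyltransferase, at 53.3 to 60.1 CPM against 45.3 to 50.5 CPM. Aldh2, the mitochondrial enzyme that oxidizes acetaldehyde, ranged from 42.6 CPM in ventral control 1 to 157 CPM in ventral control 4.

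The knockdown arm, whose libraries are separate from the controls, gave a second look at the same regions after ethanol in 4 dorsal and 3 ventral libraries with over 1000000 gene reads. Acss2 itself was at 44.3, 40.9, 18.02 and 19.3 CPM in the dorsal and 28.9, 63.6 and 36.7 CPM in the ventral ones (numbers 2 to 4), so the targeted gene did not separate these libraries from all controls. Of the 12 genes named as higher in dorsal controls, 1 was higher in dorsal knockdown libraries too, and the median log2 fold change was 1.53 in controls and -0.54 in the knockdown arm. Of the 12 named as higher in ventral controls, 3 kept that direction, with medians of -1.08 and 0.16. These genes were chosen for their difference in the controls.

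Prph stood at 0.427, 3.11, 0.874 and 1.47 CPM in dorsal knockdown 1 to 4 and 12.1, 0.726 and 10.6 CPM in ventral knockdown 2 to 4. The order of the regions was thus turned in 2 of the 3 ventral knockdown libraries. Plxnd1 in the same libraries was at 40.4, 28.1, 109 and 99.4 CPM and at 75.9, 13.7 and 134 CPM, a spread wider than in either control group. Zic1 was at 5.55 to 7.86 CPM in the dorsal and 9.64, 3.63 and 21.8 CPM in the ventral knockdown libraries, and Sp8 at 0.569 to 1.21 CPM and 0.865, 0.623 and 1.04 CPM. The high levels of both genes were thus seen in ventral controls 2 to 4 and in none of the 7 knockdown libraries.

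A test of the difference between the 2 regional differences, over 14 libraries, called 0 of 14578 genes (0%) with edgeR and 672 at an unadjusted p under 0.05. DESeq2 called 7: Prph, Wfs1, Tmem44 and Fermt1 with a larger dorsal excess in controls, and Pld5, Six3 and Slc18a2 with a larger ventral excess. For Prph the difference was 6.28 on the log2 scale with a standard error of 1.10 (edgeR adjusted p = 0.499), and for Wfs1 it was 3.30 with a standard error of 0.60 (edgeR adjusted p = 0.499). Both genes had a higher mean in dorsal than in ventral controls and a lower mean in dorsal than in ventral knockdown libraries, and 1 of the 2 tools called that difference.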

How the data were processed

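RNA of mouse hippocampus was sequenced from directional libraries. The authors deposited raw counts per gene in 1 table of 21 libraries. Reads were processed with STAR 2.5.2a and HTSeq 0.6.1p1 on mm10, per the submitters' processing notes. For the strand setting and annotation, nothing is given in the sources used here. The 5 summary lines were left out, and 0 sample columns went unused. Groups were taken from the titles. The members and gene lists were chosen with earlier results of these data known.

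Counts of the 7 libraries were tested with the quasi-likelihood test of edgeR 4.0.16 (R 4.3.3; TMM scaling, filterByExpr with a minimum count of 10, robust fit) and Benjamini-Hochberg adjustment over all genes tested. A gene was called at an adjusted p under 0.05. The fit was restricted to these libraries because the untreated libraries and 2 knockdown libraries hold few gene reads. Levels are CPM (counts scaled to a library of 1000000) after TMM scaling, and knockdown levels come from a joint scaling of 14 libraries. Standard errors come from each gene's F statistic, and fold changes are dorsal over ventral. List scores are averages of log2 CPM (prior count of 1) minus the gene's mean, taken over members that reach 1 CPM on average. The p-values reflect the spread among libraries, which may be technical. DESeq2 1.42.0 was an alternative. Named genes were the 12 with the smallest p in each direction among genes that averaged 5 CPM or more, with no overlap between groups and no clone name, with Acss2, Pld5, Prph and members of each list. Other named genes were chosen after their values were seen, and some genes that met the rule are not reported here. Positions are from GENCODE M21 on mm10. The edgeR fit was tested on simulated counts. Recovery of changed genes was required there only at a biological coefficient of variation below the 32.1% of these data.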

Additional observations from a re-analysis of the deposited data

Results flagged for a closer look

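In groups of 4 libraries, the highest or lowest library was compared with the gap to the next one, and 4 of 65 groups examined had a library beyond the 95% critical value of Dixon's test. Chance gives such a library in about 1 in 20 groups. Pld5 was at 5.26 CPM in ventral control 1, below the other 3 ventral controls at 20.8 to 23.3 CPM. Etl4 was at 45.0 CPM in ventral control 3, against 64.3 to 65.1 CPM in the others. The ependymal score, a mean log2 difference, was 2.05 in ventral control 4 and -0.42 to -0.14 in the other ventral controls. The score of the ethanol and acetate enzymes was 0.26 in the same library and -0.08 to -0.06 in the others.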

How the results depend on the processing

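The count of genes called between regions was 0 under edgeR with RLE scaling, with no low-count filter (1195 genes at an unadjusted p under 0.05), in the 20-library fit (840) and in the fit of the 4 deep ethanol groups (813). With DESeq2 it was 45. On leaving out each library in turn it was 0 to 14, the 14 without ventral control 1 and 0 without any other, and genes at an unadjusted p under 0.05 numbered 439 to 1571. For the difference between the regional differences of the 2 arms, edgeR called 0 and DESeq2 7. The 20-library fit called 1 (Prph, 6.27, adjusted p = 0.0339), and leaving out single libraries gave 0 to 2: Prph and Unc13c without ventral knockdown 3, and Pld5 without ventral control 1. The cause of these moves was not tested. Deviations of same-numbered dorsal and ventral controls from their group means correlated at -0.18, 0.08 and -0.03. Pairs with different numbers were not compared, so these values do not settle whether replicate numbers pair the libraries. With the number as a replicate block, 0 genes were called between regions (549 at an unadjusted p under 0.05) and 0 between arms (730). For the 26 genes named by rule, 338 values under alternatives gave 315 on the same side of the threshold, 23 newly called (DESeq2, or without ventral control 1) and 0 reversed. The main fit called 0 genes, so no call could be lost. Nearly all of the 26 were chosen for groups without overlap, which made a reversed sign unlikely beforehand. This tally is therefore a description and no separate support. The median log2 fold change of all genes lay between -0.10 and -0.02 under every setting. Depth limits genes near 3 counts, which is 0.210 to 1.34 CPM per library.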
